A study of Mus musculus with 18 samples.

Results

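Long noncoding RNAs or parts of them (9 of the 52636 gene identifiers of both deposited tables) were followed across colon crypts and sorted colon epithelial cells of mice with and without the odorant receptor Olfr78. They were taken by gene symbol, and each of the 9 symbols matched 1 identifier. Meg3, Rian, Mirg, Kcnq1ot1 and H19 are imprinted transcripts, Neat1 and Malat1 are abundant nuclear transcripts, and Gm28006 and Gm27533 are short annotated segments inside Neat1. The list was chosen from values measured in these same libraries, with no record of which comparison served, so the levels of the members are given as a description with no test, and nothing is read from how many of them passed a threshold.

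The libraries came from 2 mouse lines, which per the study differ in genetic background. In the Olfr78-GFP line, the receptor-coding exon is lost to an insert with GFP, an IRES and tauLacZ. GFP then marks the cells using the Olfr78 locus, and homozygous mice are knockouts in all tissues. From this line there were crypts of 2 wild-type (WT) and 5 homozygous (KO) mice, 2 pools of Epcam+ve/GFP+ve cells from heterozygous (HE) mice, 2 pools from KO mice and 2 samples of Epcam+ve/GFP-ve cells from 1 WT mouse, each pool being made of 2 mice of 4 to 7 months. In the Vil1Cre-Olfr78fx line, Cre driven by the Vil1 (villin) promoter of the intestinal epithelium removes the floxed coding exon in the epithelium alone, which gave crypts of 2 epithelial knockout (eKO) and 3 control (eCtrl) mice, the controls having either Cre with no floxed allele (eCtrl 1 and 3, labelled HE/WT) or the floxed alleles with no Cre (eCtrl 2, labelled WT/HO). The age of the crypt donors was not given in the sources used here.

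Some libraries went against their labels or stood apart. Olfr78 itself read 88 and 111 in WT crypts against 7 to 42 in KO crypts, and 61 to 124 in eCtrl crypts against 21 in eKO 1. In the library labelled eKO 2 it was 73, inside the control range, and the genotype label of that mouse, WT/HO, is that of the Cre-free control. The members' differences of the eKO group are therefore given with and without that library. eCtrl 1 and eKO 1 stood apart from the other crypt libraries in Meg3, Rian and Mirg, and KO pool 1 was the shallowest library. Values are in CP20M, reads per 20000000 reads assigned to genes. The depth was 532704 to 2237486 reads per sorted library and 6175306 to 10995308 per crypt library, so that 1 read was worth 8.94 to 37.5 CP20M in sorted cells and 1.82 to 3.24 CP20M in crypts. The enteroendocrine marker list summed to 898613 and 1158003 CP20M in HE pools, 373937 and 635184 in KO pools and 15147 and 15193 in the Epcam+ve/GFP-ve samples. The Epcam+ve/GFP-ve samples also carry an enteroendocrine label, but their marker sum was inside the range of whole crypts, 8235 to 18429 CP20M. Colonocyte and goblet markers summed to 391678 CP20M in KO pool 2, against 85982 in KO pool 1 and 215329 and 116312 in HE pools. In the Epcam+ve/GFP-ve samples that sum was 460210 and 399460. Mitochondrial genes made up 12.8% of KO pool 2, 4.94% of KO pool 1 and 6.31% and 4.12% of the HE pools.

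Meg3, Rian and Mirg are transcribed one after the other, in the same direction, from the maternal chromosome of the Dlk1-Dio3 imprinted cluster, and Meg3 is best known as a growth-restraining RNA. H19 and Kcnq1ot1 belong to a separate pair of neighbouring imprinted domains, where Kcnq1ot1 is a nuclear antisense RNA, made from the paternal copy, that silences nearby genes. Neat1 is the scaffold of paraspeckles, nuclear bodies that hold proteins and RNAs, and Malat1 is retained in nuclear speckles, the storage sites of splicing factors.

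In GRCm38 coordinates with the GENCODE vM21 annotation, Meg3 lies at chr12:109541001-109571726 (+ strand), Rian at chr12:109603940-109661716 (+) and Mirg at chr12:109729764-109749460 (+). Malat1 (chr19:5795690-5802672) and Neat1 (chr19:5824708-5845478) are neighbours on the minus strand. Kcnq1ot1 (chr7:143203458-143296549, minus strand) runs opposite to Kcnq1 inside that gene, and H19 lies at chr7:142575529-142578143 on the minus strand. Gm28006 (chr19:5844916-5845037, 122 bases) and Gm27533 (chr19:5844286-5844437, 152 bases) are annotated as small RNAs of no known class, but their sequences lie whole inside the long Neat1 transcript of 20771 bases. Gm28006 covers bases 442 to 563 and Gm27533 bases 1042 to 1193 from the 5′ end of that transcript. Of these 2 segments, the 3004-base Neat1 transcript holds Gm27533, at bases 874 to 1025, and not Gm28006 as 1 run. Both segments are shown because reads over them cannot be told apart from reads of the first bases of Neat1. They are the GENCODE vM21 transcript sequences, 5′ to 3′, with no part set in capitals.
Gm28006: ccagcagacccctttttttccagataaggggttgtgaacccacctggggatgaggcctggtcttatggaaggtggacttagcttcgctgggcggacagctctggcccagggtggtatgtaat
Gm27533: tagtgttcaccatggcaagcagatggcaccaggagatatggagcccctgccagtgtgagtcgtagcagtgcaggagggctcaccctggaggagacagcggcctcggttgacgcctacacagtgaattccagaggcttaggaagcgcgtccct

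The promoter of Meg3 is shown because Meg3 and its cluster moved together in the crypts. It is the RefSeq window of 250 bases before to 50 after the first Meg3 start (GRCm38.p6, chr12:109540746-109541045, + strand). Capitals mark a CCAAT box, a cAMP response element (TGACGTCA) and 2 overlapping TATAAA matches, one on each strand.
Meg3 promoter: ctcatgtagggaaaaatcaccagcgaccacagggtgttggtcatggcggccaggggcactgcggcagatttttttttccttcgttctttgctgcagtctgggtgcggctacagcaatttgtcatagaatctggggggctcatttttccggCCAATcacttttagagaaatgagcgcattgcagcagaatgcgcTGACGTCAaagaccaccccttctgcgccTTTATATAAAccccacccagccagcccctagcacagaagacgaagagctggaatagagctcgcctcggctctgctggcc
Among 32851 promoter windows of this length, searched on both strands, TGACGTCA occurred in 1.79%, TATAAA in 13.6% and CCAAT in 37.4%. The GC box GGGCGG, present in 35.7% of the windows, was not in this one. A match of letters is a description of the window and not a bound site.

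Per kilobase of annotated exon, the members ran from Malat1 at the top to H19 at the bottom. In WT crypts, Malat1 had 17398 ± 1051 CP20M per kb (SD, n = 2) and Neat1 951 ± 265, followed by Kcnq1ot1 with 38.9 ± 1.88, Meg3 with 27.4 ± 5.36, Rian with 23.4 ± 2.29 and Mirg with 8.02 ± 1.45. Meg3 and Rian did not differ beyond their spread in this order, whereas the ranges of the others were separate. The 2 Neat1 segments are left out of the order because features shorter than a sequenced fragment also collect reads that run past their ends. H19 had 0 to 2 reads in each of the 18 libraries, with reads in 5 of them. At these depths 3 reads, the limit that a count of 0 allows, were worth 5.46 to 9.72 CP20M in crypts and 26.8 to 113 CP20M in sorted cells, and no library reached 3 reads of H19. Igf2, the partner of H19, was at 8 to 37 CP20M in crypts.

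**Figure D1:**
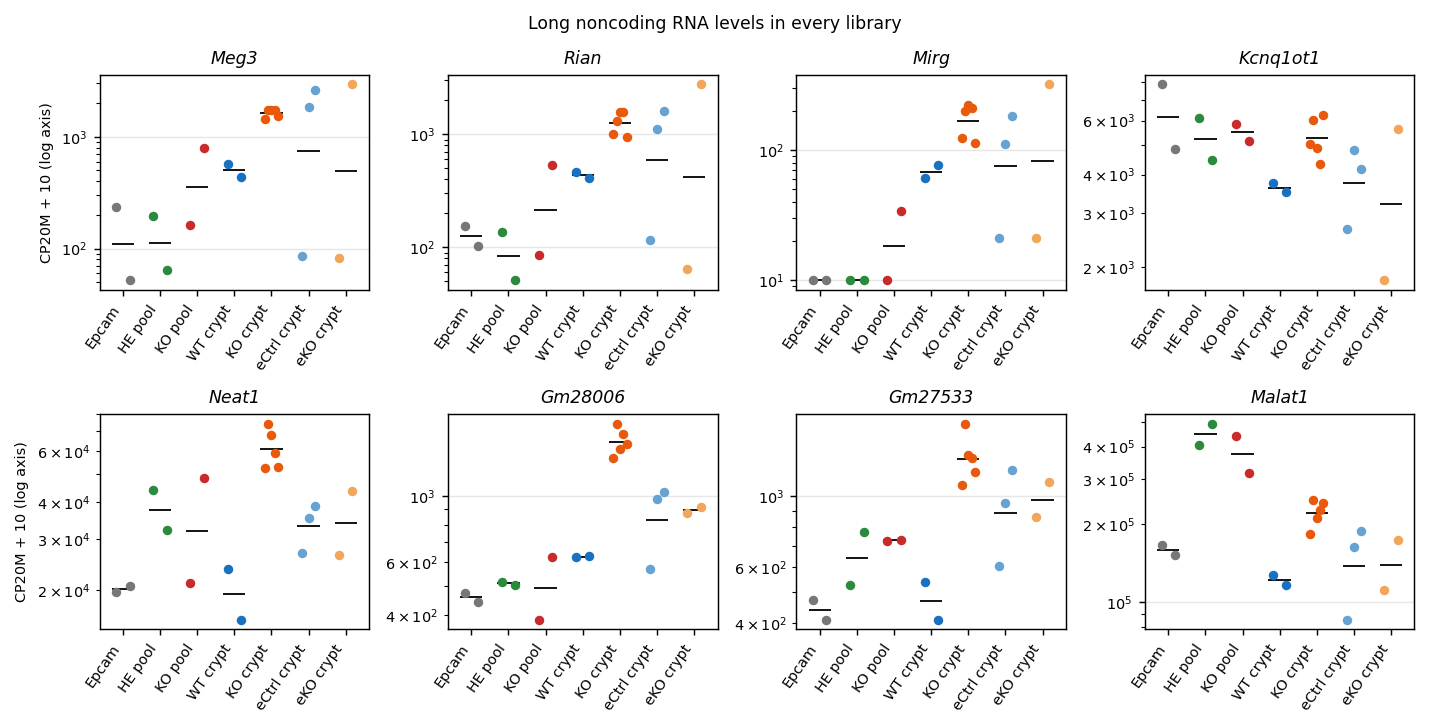
Level of 8 long noncoding RNAs in every library, as CP20M + 10 on a log axis, by group. Each point is 1 library and each bar the mean of the log values. The 5 KO crypts lie above both WT crypts in all 8 panels, while 1 eCtrl and 1 eKO library lie far below the rest of their groups for Meg3, Rian and Mirg.

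The first comparison asks how the level of these RNAs changes when Olfr78 is missing from the whole animal. In crypts of the Olfr78-GFP line, Meg3 had 565 and 428 CP20M in the WT mice and 1436, 1707, 1709, 1722 and 1524 in KO mice 1 to 5. Rian had 456 and 397 CP20M in WT and 997, 1302, 1569, 1552 and 935 in KO. Mirg had 51 and 66 CP20M in WT and 114, 188, 212, 201 and 102 in KO. All 5 KO mice were above both WT mice for each of the 3 transcripts, with no overlap.

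On the log2(CP20M + 10) scale, the mean difference of KO from WT crypts was 1.70 ± 0.12 (SE) for Meg3, 1.52 ± 0.19 for Rian and 1.29 ± 0.28 for Mirg. For Meg3 this is 3.24-fold, and leaving out any 1 of the 7 libraries kept it between 2.83-fold and 3.71-fold. The 5 KO mice were close to each other in Meg3 (1620 ± 131 CP20M, SD, n = 5), which is a coefficient of variation of 8.11%. For Rian and Mirg the KO mice spread more, with coefficients of variation of 23.5% and 31.5%, KO 1 and KO 5 being the lowest in both.

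Neat1 had 23650 and 15866 CP20M in WT crypts and 52261, 74335, 68096, 58764 and 52908 in KO crypts. Both WT values were thus below every KO value, and the difference was 1.65 ± 0.17 on the log2 scale (3.13-fold). The segments inside Neat1 showed the same order. Gm28006 had 613 and 618 CP20M in WT and 1323, 1730, 1426, 1602 and 1483 in KO. Gm27533 had 530 and 401 CP20M in WT and 1075, 1672, 1334, 1301 and 1180 in KO. Their differences were 1.28 ± 0.11 and 1.47 ± 0.16, and since the segments overlap Neat1 the 3 values are not independent. Gm27505, another such segment between them, had 357 and 363 CP20M in WT and 630 to 967 in KO.

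Malat1, the most abundant member, had 126680 and 116299 CP20M in WT crypts and 183998, 249478, 211720, 226821 and 242533 in KO crypts. Its difference of 0.87 ± 0.16 (1.83-fold) was smaller than that of Neat1, its neighbour on the chromosome. Kcnq1ot1 had 3747 and 3499 CP20M in WT and 5024, 6028, 4883, 4336 and 6261 in KO. It showed the smallest difference, 0.54 ± 0.13 (1.45-fold), again with no overlap.

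The study's thresholds for crypts, an adjusted p of at most 0.2 (limma, Benjamini-Hochberg) and a change beyond 1.5-fold, were passed by 7 of the 8 members that reached 40 CP20M in at least 2 of the 7 libraries. Kcnq1ot1 was under the fold limit, and H19 was not tested. Across all 15975 genes tested, 7.95% passed in the same direction and 1.53% in the other. The groups did not overlap, with KO higher, for 8 of 8 members tested and for 18.2% of all genes, and with KO lower for none of the members and 13.1% of all genes. The median log2 difference was 1.38 over the 8 members and 0.03 over all genes. As the members were chosen from these libraries, none of these counts is a result about them.

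Some other quantities of the same libraries moved with the members, and some did not. The 82 ribosomal protein genes summed to 416148 and 425765 CP20M in WT crypts and to 302452 to 341356 in KO crypts, so the order was the reverse of that of the noncoding RNAs. The sum over 16 nuclear speckle protein genes was 69354 and 69856 CP20M in WT and 77937 to 91427 in KO. That over 14 paraspeckle protein genes overlapped, at 34582 and 35692 in WT and 34243 to 40526 in KO. All 11929 other annotated long noncoding RNAs together made up 3.63% and 3.65% of the WT libraries and 3.99% to 4.17% of the KO libraries, while the 9 members together made up 0.687% and 0.781% of the WT libraries and 1.23% to 1.68% of the KO libraries. The 11929 still hold models that overlap members, so the 2 sums are not separate. Gm37376, annotated opposite to Malat1, is among them, with 19088 and 16824 CP20M in WT and 27758 to 38687 in KO crypts. The sum over 6 smooth muscle markers was 468 and 498 CP20M in WT and 560 to 904 in KO crypts, and that over 10 leukocyte markers 950 and 784 in WT and 418 to 711 in KO crypts. Markers of fibroblasts, a mesenchymal cell type in which Meg3 is often abundant, summed to 1048 and 2739 CP20M in WT and to 575 to 1739 in KO crypts, with overlap. The sums of neuron and glia, endothelial, and colonocyte and goblet markers and of mitochondrial genes also overlapped between WT and KO crypts. The part of these quantities in the differences was not tested. In bulk crypts, more cells of a type and more RNA per cell cannot be told apart.

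**Figure D2:**
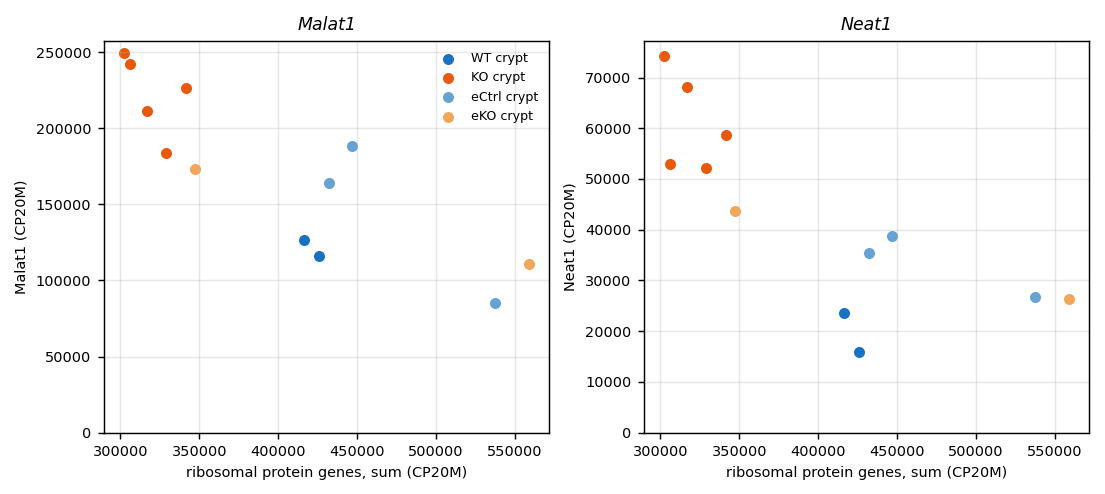
Malat1 (left) and Neat1 (right) in the 12 crypt libraries against the sum over 82 ribosomal protein genes, both axes in CP20M and each point 1 library. WT crypts had higher ribosomal protein sums and lower Malat1 and Neat1 than KO crypts, with separate ranges on both axes. In the other line, eCtrl 1 and eKO 1 had the highest sums and the lowest Malat1 and Neat1. Across both lines this order did not hold for Neat1, which was lowest in WT crypts.

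Over the 12 crypt libraries, after centring on each line, the correlation with the log2 ribosomal protein sum was -0.91 for Kcnq1ot1, -0.87 for Malat1, -0.84 for Meg3 and -0.82 for Neat1. These are descriptions over libraries that share a scaling total. They are not independent of the genotype groups.

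The same question was asked with Olfr78 removed from the epithelium alone. In crypts of the Vil1Cre-Olfr78fx line, Meg3 had 76, 1837 and 2589 CP20M in eCtrl 1, 2 and 3, 72 in eKO 1 and 2929 in the library labelled eKO 2. Rian had 107, 1102 and 1590 CP20M in the controls, 54 in eKO 1 and 2760 in the library labelled eKO 2. Mirg had 11, 100 and 171 CP20M in the controls, 11 in eKO 1 and 308 in the library labelled eKO 2. As labelled, the groups overlapped: eCtrl 1 and eKO 1 were low in Meg3, Rian and Mirg and the others were high. Without the library labelled eKO 2, eKO 1 was at or below every control in these transcripts.

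The difference of eKO from eCtrl crypts was -0.60 ± 1.78 (SE) for Meg3, -0.49 ± 1.62 for Rian and 0.13 ± 1.24 for Mirg on the log2 scale. It took its direction from single libraries. Without the library labelled eKO 2 it was -3.18 for Meg3, -3.21 for Rian and -1.83 for Mirg, and without eKO 1 it was 1.98, 2.22 and 2.09. For Meg3 it was 0.42 ± 0.22 with both eCtrl 1 and eKO 1 left out, where 1 eKO library stood against 2 controls. Meg3 reads numbered 28 in eKO 1 and 29 in eCtrl 1, against 939 or more in the 3 others.

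The other members showed the same 2 libraries at the low end but in a smaller range. Malat1 had 85263, 163938 and 188499 CP20M in the controls, 110685 in eKO 1 and 173471 in the library labelled eKO 2. Neat1 had 26756, 35358 and 38710 in the controls, 26350 in eKO 1 and 43619 in the library labelled eKO 2. Kcnq1ot1 had 2647, 4812 and 4169 in the controls, 1797 in eKO 1 and 5647 in the library labelled eKO 2. For all 3, eCtrl 1 and eKO 1 were the lowest pair, and no group was separate from the other. Without the library labelled eKO 2, the differences of Malat1, Neat1 and Kcnq1ot1 moved from 0.00, 0.03 and -0.24 to -0.32, -0.33 and -1.06.

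Gm28006 had 561, 969 and 1016 CP20M in the controls, 864 in eKO 1 and 905 in the library labelled eKO 2, and Gm27533 had 594, 941 and 1198, then 849 and 1096. The differences of the segments were 0.11 ± 0.26 and 0.14 ± 0.29, and 0.07 and -0.04 without the library labelled eKO 2. In these Neat1 segments eCtrl 1 was the lowest of the line, and eKO 1 was not set apart. As deposited 5 of the 8 members tested had eKO above eCtrl, and after median-of-ratios rescaling 3. The count was 1 without the library labelled eKO 2, 0 without eCtrl 1, 8 without eKO 1 and 7 with the replicate number as a block, so it gave no direction. With the libraries as labelled, none of the 8 was called in this line. The same held for all 15401 genes by limma (0% called higher and 0% called lower, with 127 genes at an unadjusted p under 0.05). On the same libraries edgeR called 0 genes and DESeq2 9. Without the library labelled eKO 2, only eKO 1 is left in its group, and no calls are read from that fit. The groups were separate for none of the members, against 7.58% of all genes with eKO higher and 2.79% with eKO lower, shares that include the library labelled eKO 2.

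In eCtrl 1 and eKO 1 the ribosomal protein sums were the highest of the 12 crypt libraries, at 537307 and 558949 CP20M. Fibroblast markers summed to 371 CP20M in eCtrl 1 and 809 in eKO 1, against 749 in eCtrl 3, 1993 in eCtrl 2 and 2075 in the library labelled eKO 2, so the lowest fibroblast sum and one of the lowest Meg3 values fell in the same library, while eCtrl 3 was low in fibroblast markers and high in Meg3. What set these 2 libraries apart was not tested.

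**Figure D3:**
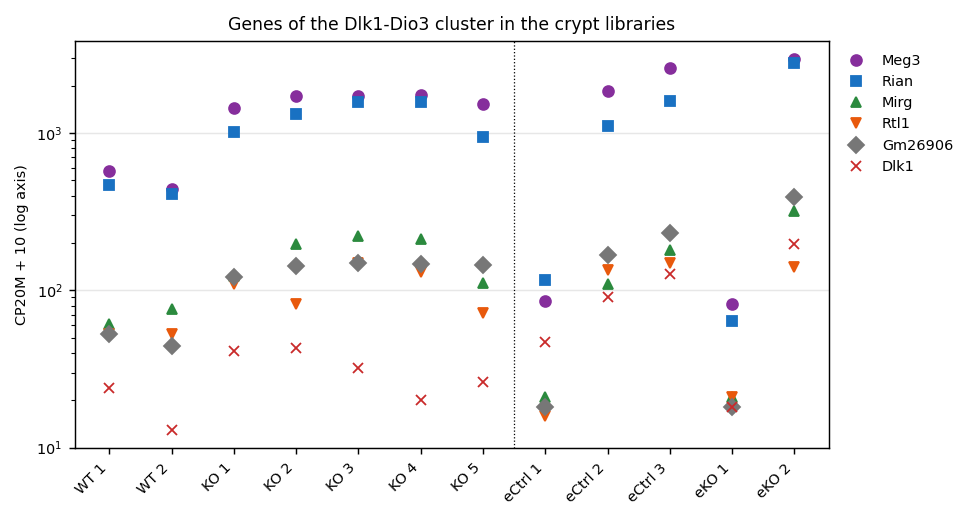
Genes of the Dlk1-Dio3 cluster in the 12 crypt libraries, as CP20M + 10 on a log axis. The dotted line parts the Olfr78-GFP line (left) from the Vil1Cre-Olfr78fx line (right). eCtrl 1 and eKO 1 are low in Meg3, Rian, Mirg, Rtl1 and Gm26906 together.

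With both lines in 1 fit and the line as a covariate, the 8 members tested had differences of 0.18 to 0.91 on the log2 scale (median 0.69, against 0.03 over all genes), all above 0. The best separated were Neat1 (0.91 ± 0.27), Gm27533 (0.86 ± 0.24) and Gm28006 (0.74 ± 0.20). None was called by limma, against 0.00608% of 16447 genes called higher and 0.0182% called lower, which is 4 genes in all (1267 at an unadjusted p under 0.05). By edgeR 9 genes and no member were called. DESeq2 called 42 genes, 18 higher and 24 lower, with Gm28006 and Gm27533 among the higher. Without eKO 1, 1134 of 16388 genes passed, 1008 higher and 126 lower, and 7 members were among them. Without both eCtrl 1 and eKO 1, 937 of 16316 genes passed, 816 higher and 121 lower, again with 7 members. Without the library labelled eKO 2, 32 genes and no member passed, and the differences of Rian and Kcnq1ot1 were -0.11 and -0.01.

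The difference between the 2 lines in the genotype effect ran from -0.77 to -2.30 over the members, the Olfr78-GFP line having the larger effect each time. For Neat1 it was -1.62 ± 0.34 and for Meg3 -2.30 ± 1.78. The lines differ in genetic background as well as in where Olfr78 was lost, and these cannot be told apart here. No member passed an adjusted p of 0.2 in this interaction term by limma, against 0.0304% of genes called in the positive direction and 0% in the negative. DESeq2 called 3 members (Neat1, Gm28006 and Gm27533) among 47 genes called in the negative direction, with 19 in the positive. With the replicate number as a block, limma called 1 member (Meg3), with 30 genes negative and 20 positive. Leaving out eCtrl 1 gave 616 of 16371 genes, 172 positive and 444 negative, with 4 members among the negative. Fits without eKO 1 or without the library labelled eKO 2 keep 1 eKO library, and no calls are read from them. The term for Meg3 was 0.29 without eKO 1 and -4.88 without the library labelled eKO 2. Controls of the 2 lines overlapped in Meg3, eCtrl 2 and 3 being above every WT and KO crypt and eCtrl 1 below both WT crypts, as set across tables scaled separately.

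Cells sorted by Epcam and GFP allow the levels in GFP+ve cells to be set beside those of the epithelium of a WT mouse. That mouse carries no GFP, so its Epcam+ve/GFP-ve cells include those using the Olfr78 locus. The groups also differ in genotype and in animals. Malat1 had 166893 and 151371 CP20M in the Epcam+ve/GFP-ve samples, 406631 and 491348 in HE pools, and 439419 and 316852 in KO pools. Every GFP+ve pool was above both Epcam+ve/GFP-ve samples, and Malat1 made up 2.24% of the reads in HE pools on average. The HE pools exceeded the Epcam+ve/GFP-ve samples by 1.49 ± 0.30 on the log2 scale (2.81-fold). The ribosomal protein genes went the other way, with sums of 452331 and 498325 CP20M in the Epcam+ve/GFP-ve samples, 245344 and 215358 in HE pools, and 176275 and 304168 in KO pools, and their part in the Malat1 difference was not tested.

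Neat1 had 19719 and 20608 CP20M in the Epcam+ve/GFP-ve samples, 44151 and 32204 in HE pools, and 21100 and 48281 in KO pools. The HE pools were higher by 0.90 ± 0.21, and the KO pools spanned the range from just above the Epcam+ve/GFP-ve samples to above both HE pools. Its 5′ segments had smaller differences. Gm28006 had 465 and 432 CP20M in the Epcam+ve/GFP-ve samples, 507 and 494 in HE pools, and 376 and 616 in KO pools. Gm27533 had 465 and 401, then 518 and 761, then 714 and 721. The differences of HE pools were 0.16 ± 0.28 for Gm28006 and 0.53 ± 0.31 for Gm27533, which rest on 37 to 57 reads per library.

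The Dlk1-Dio3 transcripts were scarce in all sorted cells. Meg3 had 224 and 42 CP20M in the Epcam+ve/GFP-ve samples, 185 and 54 in HE pools and 151 and 779 in KO pools, from 4 to 67 reads. Rian had 144 and 93, then 127 and 41, then 76 and 523. Mirg was at 0 in 5 of the 6 libraries and had 2 reads in KO pool 2. KO pool 2 was the highest in Meg3, Rian and Mirg, while KO pool 1 lay within the range of the others. The Epcam+ve/GFP-ve samples had means of 133 CP20M for Meg3 and 118.5 for Rian, against 496.5 and 426.5 in WT crypts, whereas their mean Neat1 was 1.02-fold that of WT crypts. Fibroblast markers were at 0 to 430 CP20M in sorted cells.

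Kcnq1ot1 had 7875 and 4849 CP20M in the Epcam+ve/GFP-ve samples, 6134 and 4441 in HE pools and 5857 and 5148 in KO pools. It thus overlapped between all 3 groups and was not distinguishable between them at this spread.

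None of the 7 members tested between HE pools and Epcam+ve/GFP-ve samples passed the study's thresholds there, an adjusted p under 0.001 and a change beyond 4-fold, against 1.58% of 16355 genes called higher and 0.171% lower. The groups did not overlap, with HE pools higher, for 4 members (Malat1, Neat1, Gm28006 and Gm27533) and for 30.4% of all genes, and with HE pools lower for none of the members and 33.1% of all genes. Between KO and HE pools, 0% of 11892 genes were called in either direction at an adjusted p under 0.05 (limma, 503 at an unadjusted p under 0.05, 0 called by edgeR and 8 by DESeq2). By the study's own criterion, means apart by over 1.5-fold and by more than 2 average SDs, 3.23% of genes were higher and 9.98% lower in KO pools, and no member. That split of 384 higher and 1187 lower genes became 687 and 600 after median-of-ratios rescaling. Separate groups were found for no member, against 8.91% of genes with KO pools higher and 26.1% with KO pools lower.

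The members' differences between KO and HE pools were 1.67 ± 0.86 for Meg3, 1.36 ± 0.90 for Rian and between -0.26 and 0.19 for the 5 others, where the median over all genes was -0.18. Malat1, at -0.26 ± 0.77, and Neat1, at -0.24 ± 0.46, were close to that median. As deposited 4 of the 7 members were above 0, and after the rescaling 5. The KO pool 2 library carried the Meg3 and Rian differences. Without it they were 0.53 and 0.04, and without KO pool 1 they were 2.82 and 2.67. KO pool 2 also had the highest colonocyte and goblet marker sum of the GFP+ve pools, and the part of that sum in these differences was not tested.

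**Figure D4:**
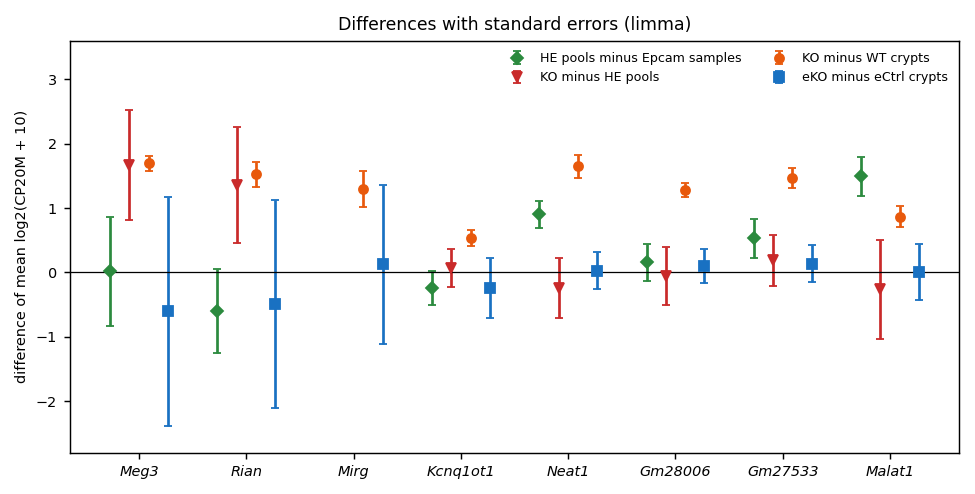
Difference of mean log2(CP20M + 10) with its standard error (limma) for 8 long noncoding RNAs in 4 comparisons. KO minus WT crypts are above 0 for all 8, with short bars, while eKO minus eCtrl crypts have bars that cross 0. Mirg was not tested in sorted cells.

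Overlapping annotations give a view of the reads inside the long members. Gm28006 held 2.36% and 2.09% of the number of Neat1 reads in the Epcam+ve/GFP-ve samples, 1.15% and 1.53% in HE pools and 1.78% and 1.28% in KO pools. The exact binomial 95% intervals were 1.77% to 3.08% for the first Epcam+ve/GFP-ve sample and 0.834% to 1.54% for HE pool 1, and cover counting error only. In crypts the share was 2.59% and 3.89% in WT, and 2.09% to 2.80% in KO. The GFP+ve pools were thus all below the Epcam+ve/GFP-ve samples in the share of Neat1 reads at this 5′ segment, although KO pool 1 rested on 10 reads and its interval, 0.856% to 3.25%, held the values of every other sorted library.

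For Gm27533 the share did not separate the sorted groups, with 2.36% and 1.94% in the Epcam+ve/GFP-ve samples, 1.17% and 2.36% in HE pools and 3.38% and 1.49% in KO pools. In WT crypts it was 2.24% and 2.52%, and in KO crypts 1.96% to 2.25%. How reads over 2 features were assigned decides the level of these shares and was not given in the sources used here.

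Inside Malat1, the 86-base segment Gm27694 (chr19:5799000-5799085) held 5.58% and 5.59% of the number of Malat1 reads in WT crypts and 4.37% to 4.66% in the 5 KO crypts, with no overlap. The intervals of single libraries were narrow, 5.37% to 5.79% in WT 1 and 4.36% to 4.61% in KO 5. In the other line the share ran from 5.12% to 5.94% in the controls, and was 4.85% in eKO 1 and 6.97% in the library labelled eKO 2, so the groups overlapped there. Sorted cells had 5.77% to 6.70%. Gm37376, on the strand opposite to Malat1, had 15.1% and 14.5% of the Malat1 read number in WT crypts and 15.1% to 15.9% in KO crypts. Whether reads were counted by strand was not given, so reads of Malat1 and of this antisense model cannot be told apart.

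**Figure D5:**
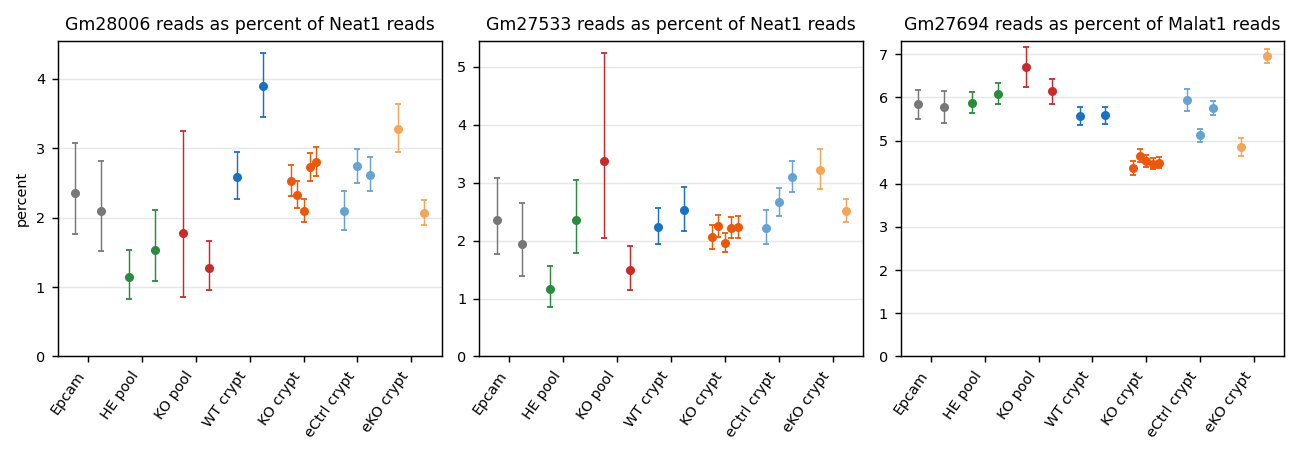
Reads of a short segment as a percent of the reads of the transcript around it, by group: Gm28006 and Gm27533 in Neat1, Gm27694 in Malat1. Points are libraries and bars exact binomial 95% intervals, which cover counting error only. The Gm27694 share of the 5 KO crypts lies below that of both WT crypts.

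The ratio of Neat1 to Malat1 reads did not overlap between the genotypes in the Olfr78-GFP line, with Neat1 at 18.7% and 13.6% of the Malat1 read number in WT and 21.8% to 32.2% in KO crypts. Rian stayed between 61.4% and 92.6% of the Meg3 read number over the 7 crypts of this line. In the other line it ran from 60.0% to 141%, the highest being eCtrl 1, with 29 Meg3 and 41 Rian reads. The 2 transcripts therefore kept a similar proportion while Meg3 ran from 72 to 2929 CP20M between crypt libraries.

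Some neighbouring genes of the Dlk1-Dio3 cluster had the same order over crypt libraries as Meg3 and Rian. Gm26906, annotated on the strand opposite to Meg3 at its 3′ end, had 43 and 34 CP20M in WT crypts and 111 to 138 in KO crypts, 8 in both eCtrl 1 and eKO 1 and 157 to 381 in the other 3. Its reads came to a median of 8.28% of those of Meg3 in crypts, and at least 7.55%, and as counting by strand was not given, they cannot be told apart from Meg3 reads. It was the gene most like Meg3 over the 12 crypt libraries (Pearson r = 0.99 on the log2 scale, after centring on each line), followed by Rian (0.98) and Sipa1l3 (0.98). This order did not hold within the lines. In the Olfr78-GFP line Rian ranked 78 of 15975 genes for Meg3, and Neat1 ranked 4. In the other line Rian ranked 251 of 15401 and Neat1 703. Gm37899, downstream of Rian, had 51 and 39 CP20M in WT crypts, 68 to 141 in KO crypts and 3 in eKO 1. It was the gene most like Rian (0.99), and Rian was the gene most like Mirg (0.98).

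Rtl1, a paternally expressed retrotransposon-derived gene between Meg3 and Rian on the opposite strand, had 43 and 43 CP20M in WT crypts and 100, 72, 138, 120 and 62 in KO crypts. In the other line it had 6, 124 and 140 in the controls, 11 in eKO 1 and 131 in the library labelled eKO 2. With counting by strand not given and no allele measured, these reads cannot be assigned to either parental copy. Dlk1, another paternally expressed gene of the cluster and an inhibitor of Notch signalling, had 14 and 3 CP20M in WT and 10 to 33 in KO crypts, with overlap, and in the other line 37, 81 and 116 in the controls, 8 in eKO 1 and 186 in the library labelled eKO 2. In sorted cells Dlk1 was highest in HE pool 2, at 227 CP20M, where Meg3 was at 54. Dio3 had at most 11 CP20M in any library.

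For the genes most like Neat1 in crypts, the rule gave Gm27533 (0.97), Zfp473 (0.96) and Rab27a (0.96). Gm28006 and Gm27533 were most like each other (0.97), followed for Gm28006 by Ubtd2 (0.97) and Dnajc1 (0.96) and for Gm27533 by Neat1 (0.97) and Tmcc3os (0.97). Malat1 was most like Gm37334 (0.98), its own antisense model Gm37376 (0.98) and Gm19461 (0.98), and Kcnq1ot1 most like 9330162G02Rik (0.98), 2610037D02Rik (0.98) and Kmt2c (0.97). The third gene for Mirg was Helz2 (0.97), after Rian and Gm37899 (0.98). All 16447 genes that passed the filter were searched over 12 libraries that share a scaling total, and these values carry no test. Among the members themselves, r over these libraries was 0.98 between Meg3 and Rian, 0.85 between Meg3 and Malat1 and 0.61 between Meg3 and Neat1. Within each line the last was not low: Meg3 and Neat1 had 0.99 over the 7 libraries of the Olfr78-GFP line, where Meg3 and Rian had 0.96, and 0.97 over the 5 of the other line, where Meg3 and Rian had 0.99. The lower value over all 12 thus came with pooling the lines.

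In the 6 sorted libraries the leading genes were others. They were Faf2, Zfp94 and Plag1 for Meg3 (0.97), AC159633.2 (0.98), Ascc2 (0.97) and mt-Nd6 (0.97) for Rian, 1700007K13Rik (1.00), Gm24391 (1.00) and Myt1l (0.99) for Neat1, and Ehbp1, Syt7 and Gm43000 (1.00) for Malat1. Kcnq1ot1 led to Wrap53, Mospd1 and Setd6 (0.99), Gm28006 to Gm43743 (0.99), Gm11992 (0.98) and Samd9l (0.97), and Gm27533 to Prmt2, Cux2 and Gm10837 (0.99). Over 6 libraries and 17149 genes these values are a description only.

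Kcnq1, the potassium channel gene around Kcnq1ot1, had overlapping values in WT and KO crypts, unlike the reads counted to its antisense RNA. It had 1130 and 1270 CP20M in WT crypts and 1060 to 1239 in KO crypts (log2 difference -0.01 ± 0.10, adjusted p = 0.956, limma). As counting by strand was not given, reads from the introns of Kcnq1 cannot be told apart from Kcnq1ot1 reads. In eKO 1, where Kcnq1ot1 was lowest, Kcnq1 had 1789 CP20M, and its reads came to 99.6% of those of Kcnq1ot1. In the same line this share was 63.0% in eCtrl 1, 28.5% and 35.5% in eCtrl 2 and 3, and 26.7% in the library labelled eKO 2. In the Olfr78-GFP line it was 30.1% and 36.3% in WT crypts and 17.6% to 28.5% in KO crypts. In sorted cells Kcnq1 had 2030 and 1439 CP20M in the Epcam+ve/GFP-ve samples, 1186 and 641 in HE pools and 789 and 965 in KO pools. Cdkn1c, a cell-cycle inhibitor silenced in the same domain, had 123 and 96 CP20M in WT crypts and 111 to 157 in KO crypts (0.34 ± 0.19, adjusted p = 0.284). Phlda2 was at 25 to 85 CP20M in crypts.

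Lists of related genes, chosen like the members with results of these data known, were counted in the same fits. Of 37 other named long noncoding RNAs tested between KO and WT crypts, 5 rose and none fell, against 7.95% and 1.53% of all genes. These were Dleu2 (log2 difference 0.72 ± 0.11, adjusted p = 0.00643), Firre (0.61 ± 0.09, adjusted p = 0.00677), Lncpint (0.91 ± 0.21, adjusted p = 0.0272), Airn (0.85 ± 0.23, adjusted p = 0.0441) and Xist (1.01 ± 0.39, adjusted p = 0.125). Xist rested on 5 to 37 reads per library and overlapped, with 14 and 34 CP20M in WT crypts and 33 to 94 in KO crypts. Firre and Xist are nuclear RNAs made from the X chromosome, and Airn is the imprinted antisense RNA of the Igf2r domain. The median over the 37 was 0.08, against 0.03 over all genes. The 3 most abundant, Rmrp, Rpph1 and Rn7sk, which are made by RNA polymerase III, differed by 0.09, -0.06 and -0.01 and did not pass.

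Of 34 imprinted genes tested between KO and WT crypts, 3 rose and none fell, close to the 7.95% of all genes that rose, with a median of 0.05. These were Airn, Rtl1 (0.98 ± 0.28, adjusted p = 0.0543) and Nnat (0.79 ± 0.20, adjusted p = 0.0368). The most abundant imprinted genes, Gnas, Igf2r and Ube3a, differed by -0.14, 0.09 and -0.06. None of 14 paraspeckle protein genes and none of 16 nuclear speckle protein genes passed both thresholds, with medians of 0.18 and 0.22. Sfpq and Nono, the proteins that bind Neat1, differed by 0.21 (adjusted p = 0.265) and -0.14 (adjusted p = 0.302), and Hnrnpk, the most abundant of that list, by -0.18, with none passing. Srrm2, a core speckle protein and the most abundant of its list, differed by 0.55 ± 0.09 (adjusted p = 0.00752), under the fold limit. Son and Rbm25 followed with 0.22 and 0.34. None of these 4 lists had a gene called by limma in the Vil1Cre-Olfr78fx line or over both lines, with or without the library labelled eKO 2.

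Between HE pools and Epcam+ve/GFP-ve samples, 0 of 35 other long noncoding RNAs, 1 of 32 imprinted genes and none of the 30 paraspeckle and speckle protein genes passed. The imprinted gene was Peg3, a zinc-finger gene, at 4.56 ± 0.23 on the log2 scale (23.7-fold, adjusted p = 1.28e-05, limma). As both Epcam+ve/GFP-ve samples came from 1 mouse, this SE and p-value do not cover the spread between WT mice. The medians were 0.07 for long noncoding RNAs, 0.18 for imprinted genes, 0.09 for paraspeckle and 0.16 for nuclear speckle protein genes, against -0.05 over all genes. Between KO and HE pools, the study's criterion called 2 long noncoding RNAs, Miat and Snhg4 (-1.31 and -0.74), and 3 imprinted genes, Inpp5f, Peg3 and Zrsr1 (-1.32, -1.08 and -0.76), all lower in KO pools, with no p-value. Over all genes the same criterion gave 9.98% lower and 3.23% higher, and after median-of-ratios rescaling 1 long noncoding RNA and 2 imprinted genes were called lower, so nothing is read from these counts.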

How the data were processed

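Total RNA of crypts and sorted cells was sequenced paired-end from Ovation Solo libraries. Per the labels and methods, the authors aligned reads with STAR to GRCm38 (mm10), counted them with HTSeq per gene of Ensembl release 90 and scaled them to 20000000 per library, in tables made separately for the 2 lines. The deposited signal of the sorted libraries and the deposited score of the crypt libraries are such scaled values, rounded up. Whole reads were recovered from the steps of the values (99.8% or more of the values came out whole in each library). The counts sum to 532704 to 10995308 reads per library, which limits the precision of scarce members.

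Differences were fitted across all genes with limma 3.58.1 on log2(CP20M + 10) with a trend, for genes with 40 CP20M in at least 2 libraries (above 40 in all 4 pools for KO against HE pools), with Benjamini-Hochberg adjustment. edgeR 4.0.16 and DESeq2 1.42.0 on recovered reads, pseudocounts of 1 and 40, median-of-ratios rescaling, no filter, no trend, a replicate block and leaving out each library were alternatives. The scripts were tested on simulated data. The 2 Epcam+ve/GFP-ve samples came from 1 mouse, so their spread is technical. Annotation was GENCODE vM21, in which 52489 of 52636 identifiers matched, and promoters were those of RefSeq (GRCm38.p6). The members and lists were chosen with earlier results of these data known. Named genes were the members, genes overlapping them or within 20 kb with appreciable reads, the partners of each imprinted cluster, the 3 genes most correlated with each member, and the called (8 at most) and 3 most abundant genes of each list.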

Additional observations from a re-analysis of the deposited data

How the results depend on the processing

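In KO against WT crypts, each of the 8 members tested kept a positive difference in the alternatives run, and 7 or 8 of 8 were called. 1514 genes were called there, 854 with a pseudocount of 40 and 546 to 1684 without single libraries, the lowest without WT mouse 2 and 953 without WT mouse 1. For HE pools against Epcam+ve/GFP-ve samples, 287 genes became 77 and 522 with pseudocounts of 1 and 40, 93 with no filter, 0 with no trend (5289 at an unadjusted p under 0.05), 746 by edgeR, 720 by DESeq2, 523 with a replicate block and 317 to 1195 without single libraries. KO against HE pools gave 8 calls by DESeq2 and 0 to 373 without single libraries, the most without KO pool 1. The study's criterion gave 1571, 3696 with no filter and 1853 to 3390 without single libraries. Over both lines, 4 became 0 with no trend, 9 by edgeR, 42 by DESeq2, 27 with a replicate block and 0 to 1134 without single libraries, and 937 without eCtrl 1 and eKO 1, left out after seeing the data. In the Vil1Cre-Olfr78fx line, 0 became 9 by DESeq2, 13 with a replicate block, 7 without both libraries and 1 to 6 without single ones. The difference between lines went from 5 to 3 with a pseudocount of 1 or no filter, 66 by DESeq2, 50 with a replicate block, 63 without both libraries and 2 to 4296 without single ones. The causes were not tested.

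The numbers in the titles pair no animals. Before their use as a replicate block, the deviations of same-numbered libraries from their group means were found to correlate at 0.59 for eCtrl 1 and eKO 1, 0.36 for eCtrl 2 and the library labelled eKO 2, 0.03 for Epcam+ve/GFP-ve and HE libraries and -0.24 for HE and KO pools, where the crossed block, added after seeing the data, gave 85 calls and the numbered block 0. With 1 library left in a group, its spread was taken from the other group. Depth limits Meg3, Rian and the Neat1 segments in sorted cells, where 1 read is worth up to 37.5 CP20M.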
